A study of Mus musculus with 18 samples.

Results

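The CC chemokines described here are 10 genes, Ccl2, Ccl3, Ccl4, Ccl5, Ccl7, Ccl8, Ccl11, Ccl17, Ccl20 and Ccl22, taken by symbol from a table of 23951 genes, and all 10 were found in it. The table holds RNA-seq levels of sorted ear skin cells in 18 libraries, 3 mice in each of 6 groups. Hair follicle stem cells of the bulge (HF-SCs) were sorted as CD45-, CD49f high, CD34+ cells, and basal keratinocytes (b-KCs) as CD45-, CD49f high, CD34- cells. The comparisons ask how loss of c-Jun and JunB in the epidermis changes the cells that lost the genes and the neighbours that kept them.

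Mutant mice (DKO*-mT/mG) carried floxed JunB and c-Jun alleles, K5-Cre-ERT and the mT/mG reporter. Tamoxifen was given to 8-week-old mice as 4 daily injections of 2 mg, and DKO* cells were collected at day 7. The K5 promoter drives Cre in basal keratinocytes and epidermal stem cells, and a cell with active Cre turns from Tomato to GFP. GFP libraries therefore stand for recombined (mutant) cells, and Tom libraries for non-recombined cells of the same animals. Controls (Co) carried K5-Cre and mT/mG, with c-Jun and JunB either wild type or heterozygous, so that Cre, reporter and tamoxifen were shared by all groups. The sample labels give no day of collection for the Co libraries. The 4 DKO* populations all came from mice 814, 815 and 817, and both Co populations from mice 810, 825 and 828. The sources give no colour for the Co sort. Genotype and individual mouse cannot be told apart beyond the spread among 3 animals. Levels are FPKM, fragment counts scaled to transcript length and library size, and can be compared between genes because they are per length.

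Chemokines are small secreted proteins that guide leukocytes along a concentration gradient through seven-pass receptors on the leukocyte surface. In the CC family the first conserved cysteines are adjacent. Keratinocytes, dermal cells and leukocytes all make some of them in inflamed skin, and the members differ in the receptor they engage and so in the cells they attract. Ccl20 is the ligand of Ccr6. Ccl2 and Ccl7 act through Ccr2 on monocytes, Ccl11 through Ccr3 on eosinophils, and mouse Ccl8 through Ccr8. Ccl3, Ccl4 and Ccl5 attract monocytes and T cells, while Ccl17 and Ccl22 share Ccr4.

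In the NCBI37 annotation (mm9), Ccl20 lies on chromosome 1 (83113341-83115742, plus strand). Ccl2 (81849073-81850955), Ccl7 (81859214-81861027), Ccl11 (81871325-81876457) and Ccl8 (81928687-81930301) follow each other in that order on the plus strand of chromosome 11. Farther along the same chromosome lie Ccl5 (83339280-83344020, minus strand), Ccl3 (83461346-83462857, minus strand) and Ccl4 (83476086-83478185, plus strand). Ccl22 (97269490-97275599) and Ccl17 (97334353-97335935) are close together on the plus strand of chromosome 8.

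A RefSeq promoter sequence (assembly GRCm38.p6) was at hand for 5 of the 10 members, Ccl3, Ccl8, Ccl17, Ccl20 and Ccl22. The 250 bases before the annotated start were searched on both strands for the AP-1 motif TGANTCA, since c-Jun and JunB are AP-1 subunits, and for the NF-kB consensus. Ccl20, the most abundant member, and Ccl8, the only member called in b-KC Tom, are shown, with matches in capitals.
Ccl20 (chr1:83116516-83116765, plus strand): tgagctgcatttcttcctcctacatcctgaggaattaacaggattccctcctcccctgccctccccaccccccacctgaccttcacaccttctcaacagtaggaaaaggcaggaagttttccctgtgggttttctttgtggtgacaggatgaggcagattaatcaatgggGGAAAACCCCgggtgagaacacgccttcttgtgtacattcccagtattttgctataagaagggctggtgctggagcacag
Ccl8 (chr11:82114935-82115184, plus strand): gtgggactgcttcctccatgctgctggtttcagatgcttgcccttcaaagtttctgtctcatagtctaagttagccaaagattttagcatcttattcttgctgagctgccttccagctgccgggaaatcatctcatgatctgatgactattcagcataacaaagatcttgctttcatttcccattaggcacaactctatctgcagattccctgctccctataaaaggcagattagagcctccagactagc
The capitals in the Ccl20 sequence mark an NF-kB match, GGAAAACCCC, at 80 to 71 bases before the start, and the Ccl8 sequence held no match to either motif. None of the 5 sequences held the AP-1 letters in this window, which says nothing about AP-1 binding elsewhere. Among 32851 mouse promoter windows of 250 bases, 6.75% held the AP-1 motif and 3.90% the NF-kB consensus, and overlaps between motifs were not removed.

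The targeted genes were lower in GFP than in Co in both cell types. Jun stood at 835, 1028 and 1086 FPKM in HF-SC Co and at 69.6, 88.4 and 30.4 FPKM in HF-SC GFP. In b-KCs it stood at 876, 980 and 1000 FPKM in Co and at 53.9, 65.4 and 29.6 FPKM in GFP. Junb lay between 436 and 772 FPKM in the 6 Co libraries and between 37.2 and 77.5 FPKM in the 6 GFP libraries. Tom libraries, labelled as non-recombined, lay between the GFP and Co ranges for both genes, at 163 to 614 FPKM for Jun and 208 to 402 FPKM for Junb. In b-KC Tom both were called lower than in Co, with differences of -1.94 for Jun (limma adjusted p = 0.00114) and -1.27 for Junb (limma adjusted p = 0.00308) on the log2(FPKM + 1) scale. In HF-SC Tom the differences of -1.30 (limma adjusted p = 0.0155) and -0.56 (limma adjusted p = 0.147) were not called. Depth implied by the steps of low FPKM values was 16500000 to 26280000 reads a library. Krt5 was at 2299 to 7318 FPKM in all libraries, and Cd34 at 161 to 889 FPKM in HF-SCs against 0.341 to 2.53 FPKM in b-KCs, as the gates require. Krt14, a keratin of basal cells, was listed at 0 in b-KC GFP 817, b-KC Tom 814 and b-KC Tom 817, and Krt15, a bulge keratin, in HF-SC Co 828, so that a listed 0 can be a failed estimate. Markers of other cells were higher in places. The summed level of 8 endothelial markers was 382 to 1160 FPKM in HF-SC Tom against 40.4 to 67.5 FPKM in HF-SC Co and 1.08 to 23.4 FPKM in HF-SC GFP. That of 9 leukocyte and myeloid markers was 9.82 to 38.2 FPKM in HF-SC GFP and 13.6 to 26.5 FPKM in HF-SC Tom, against 4.90 to 7.28 FPKM in HF-SC Co. In b-KCs the myeloid sum was 4.88 to 7.01 FPKM in GFP and Tom and 1.41 to 2.17 FPKM in Co. The sum of 7 dendritic cell markers was 143 to 1353 FPKM in DKO* libraries and 5.81 to 13.2 FPKM in Co. The MHC class II chaperone gene Cd74 alone was at 81.0 to 805 FPKM in DKO*, while Itgax was at most 0.0732 FPKM and Flt3 at most 0.0230 FPKM in any library. The sum of 7 neutrophil markers was 6.39 to 11.6 FPKM and 1.43 to 1.96 FPKM.

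Of the 10 members, 7 passed a filter of at least 1 FPKM in at least 3 libraries and were tested, by limma on log2(FPKM + 1) with Benjamini-Hochberg adjustment over 12751 genes and a call at an adjusted p below 0.01. Ccl5, Ccl17 and Ccl22 did not pass. Ccl3, Ccl4, Ccl8 and Ccl11 reached 1 FPKM in at most 1 Co library and passed through DKO* libraries, which favours higher values there. Their changes and p-values are given as a description, and nothing is read from the counts of called members beside the shares of all genes. In HF-SC GFP, 3 members were called higher than in Co (Ccl3, Ccl4 and Ccl20), where 13% of all genes tested were called higher. In HF-SC Tom the called members were again Ccl3, Ccl4 and Ccl20, against 15.7% of all genes. In b-KC GFP only Ccl20 was called higher than in Co, against 12.5% of all genes, and in b-KC Tom only Ccl8, against 15.4%. No member was called lower than in Co in any DKO* population, where 12.3% (HF-SC GFP), 13.9% (HF-SC Tom), 12% (b-KC GFP) and 15.3% (b-KC Tom) of all genes were. These 4 comparisons share control libraries within a cell type, and the DKO* populations share mice.

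**Figure D1:**
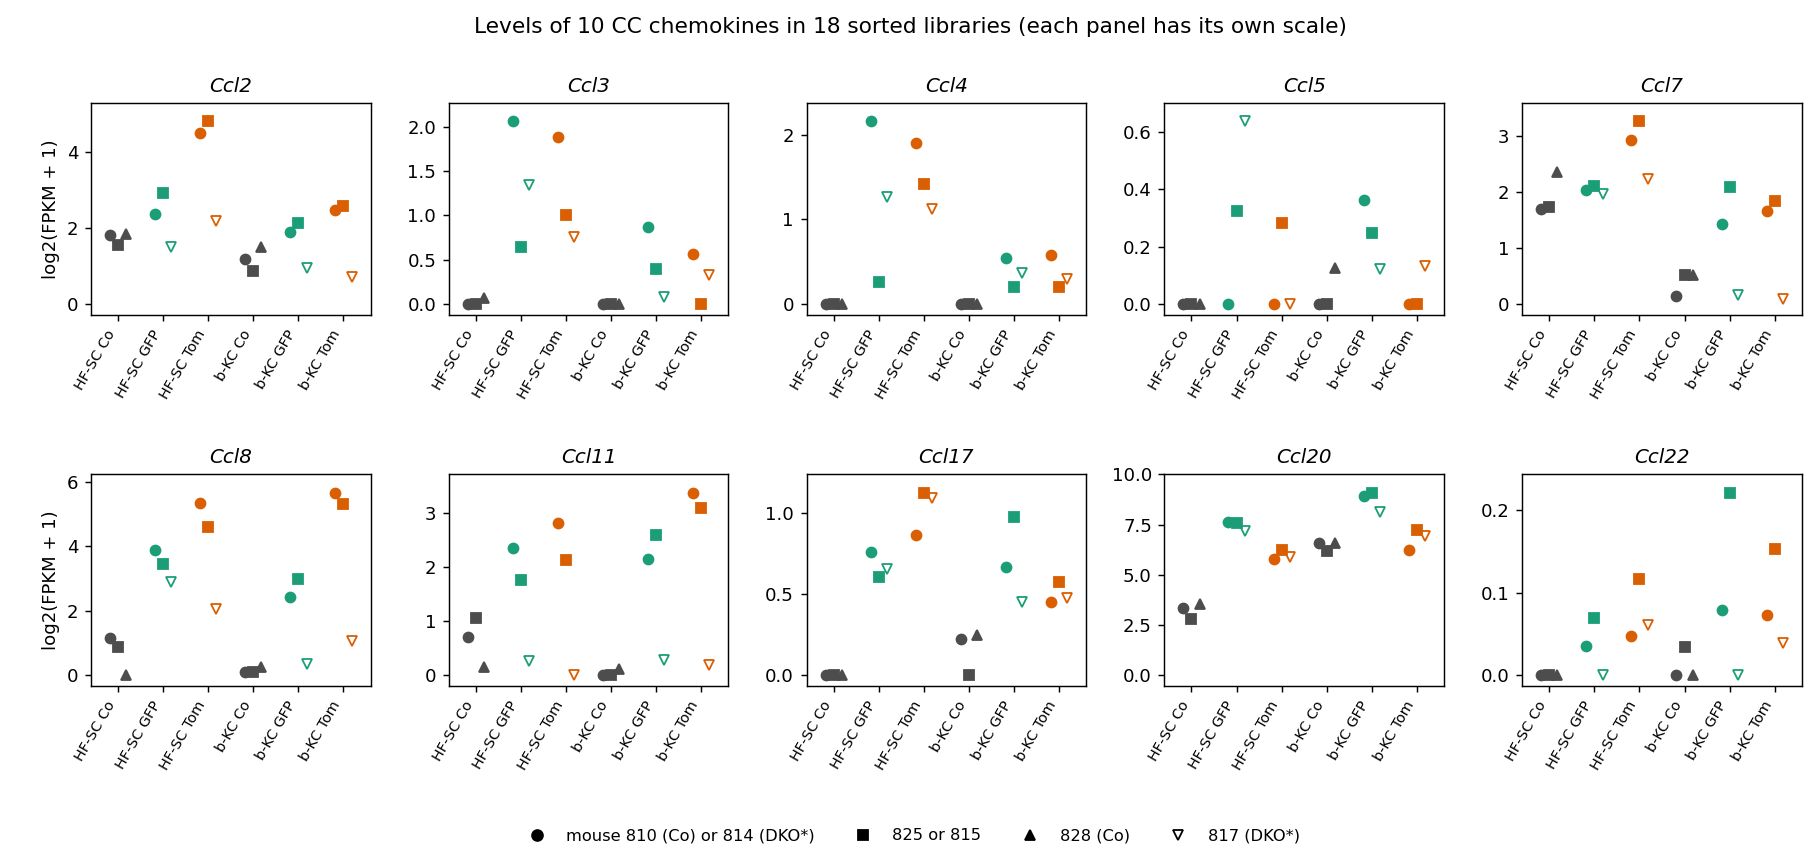
Log2(FPKM + 1) of each of the 10 CC chemokines in the 18 libraries, 1 point a library, grouped by population on the horizontal axis and drawn with a symbol for each mouse, each panel on its own scale, with open triangles for mouse 817. The Ccl20 panel has the highest values and the Ccl22 panel the lowest, and the open triangles lie lowest of the DKO* points for Ccl2, Ccl7, Ccl8 and Ccl11.

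Ccl20, which attracts Ccr6-bearing T cells and dendritic cells, was the most abundant member in each of the 18 libraries. In HF-SC Co it stood at 9.38, 5.89 and 10.8 FPKM, in HF-SC GFP at 194, 193 and 145 FPKM, and in HF-SC Tom at 53.5, 74.0 and 57.6 FPKM. The HF-SC groups did not overlap, with every GFP library above every Tom library and every Tom library above every Co library, and 8.41% of all genes tested lay higher in GFP than in Tom without overlap. Against Co, 24.7% (GFP) and 24.4% (Tom) of all genes did. In b-KC Co it stood at 96.3, 72.7 and 96.3 FPKM, in b-KC GFP at 484, 547 and 275 FPKM, and in b-KC Tom at 75.5, 152 and 120 FPKM. Here all GFP libraries lay above the rest, as 8.48% of all genes did against Tom and 28% against Co, and the Tom and Co libraries overlapped.

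Relative to Co, the mean Ccl20 level was 20.4-fold higher in HF-SC GFP and 7.10-fold higher in HF-SC Tom. On the log2(FPKM + 1) scale these were rises of 4.22 (SE 0.29, limma adjusted p = 5.77e-08) and 2.72 (SE 0.29, limma adjusted p = 2.50e-06). In b-KC GFP the mean was 4.92-fold that of Co, a rise of 2.24 (SE 0.29, limma adjusted p = 4.45e-05). The b-KC Tom difference from Co was 0.34 on that scale, with a 95% interval of -0.27 to 0.95 and a limma adjusted p of 0.345, and so was not resolved. Since these are bulk libraries, more Ccl20-expressing cells and more Ccl20 RNA per cell cannot be told apart. The sum of 7 dendritic cell markers given above was higher than in Co in all DKO* libraries, those of b-KC Tom included. It was 192 to 238 FPKM in HF-SC GFP, 143 to 351 FPKM in HF-SC Tom, 371 to 676 FPKM in b-KC GFP and 290 to 1353 FPKM in b-KC Tom. Cd74 was at 81.0 to 805 FPKM, but the members of the sum did not move alike. Itgax and Flt3 were near or at 0 throughout, and Cd207, a gene of Langerhans cells, overlapped between HF-SC Co (0.127 to 0.595 FPKM) and HF-SC GFP (0.234 to 1.07 FPKM). Cd207 also overlapped Co in HF-SC Tom and b-KC GFP. In b-KC Tom (0.232 to 0.957 FPKM) it lay above b-KC Co (0.113 to 0.224 FPKM), as 31.6% of all genes tested did. Ptprc, which encodes CD45 and marks leukocytes, was at 0.0517 to 0.946 FPKM in HF-SC GFP and at most 0.0414 FPKM in HF-SC Co. The part of other cell types in the Ccl20 levels was not tested.

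Mutant cells had more Ccl20 than the non-mutant cells sorted beside them. In HF-SCs the ratio of GFP to Tom was 3.63, 2.61 and 2.51 in mice 814, 815 and 817, and in b-KCs it was 6.41, 3.60 and 2.29. GFP exceeded Tom in 3 of 3 mice in both cell types. In HF-SCs the difference was 1.51 on the log2(FPKM + 1) scale (SE 0.29, limma adjusted p = 0.00229), in a comparison where 0.902% of all genes were called higher. For b-KCs it was 1.90 (SE 0.29, limma adjusted p = 0.0028), where 0.361% were called higher. With the mouse as a fixed replicate block in a fit of the b-KC fractions alone, the b-KC difference had a limma adjusted p of 0.0267 and was no longer called. Fits of only the groups compared, without a block, called neither difference. Without mouse 814 the limma adjusted p was 0.0463 for HF-SCs and 0.117 for b-KCs. Without mouse 815 these were 0.0214 and 0.0641. The sizes of the difference in those fits were 1.34 to 1.58 in HF-SCs and 1.52 to 1.93 in b-KCs.

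**Figure D2:**
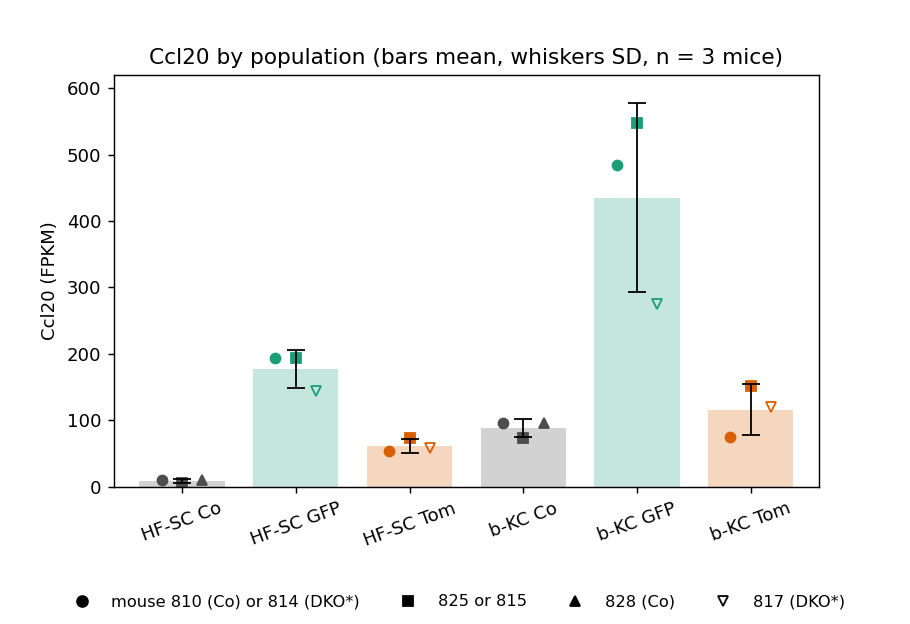
Ccl20 level in FPKM (linear axis from 0) in the 6 populations, with bars for the mean, whiskers for the SD of 3 mice and a point for each library. The b-KC GFP mean of 435 FPKM is the highest and the HF-SC Co mean of 8.69 FPKM the lowest, and the b-KC Tom points overlap those of b-KC Co.

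The cell types differed in Ccl20 in the Co mice. The b-KC Co mean was 10.2-fold the HF-SC Co mean, and HF-SC Co was lower by -3.23 on the log2(FPKM + 1) scale (SE 0.29, limma adjusted p = 2.05e-07), in a comparison where 19.3% of all genes were called lower and 37.4% lay lower without overlap. Bringing the libraries to an equal upper quartile shifted the median of all genes in this comparison from -0.06 to 0.10 and the calls from 2384 higher and 2461 lower to 3096 and 1834, with Ccl20 still called lower. The HF-SC change from Co to GFP exceeded that of b-KCs by 1.99 (SE 0.40, limma adjusted p = 0.00469), where 3.32% of all genes were called in that direction. The change from Co to Tom was larger in HF-SCs by 2.38 (SE 0.40, limma adjusted p = 8.60e-04), where 5.93% were. The first of these differences was 1.89 to 2.11 when mouse 810, 814, 815, 825 or 828 was left out, with limma adjusted p-values of 0.0175 to 0.0281, so that it was not called without any 1 of these 5 mice.

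By mean level the order was b-KC GFP (435 ± 143 FPKM, SD, n = 3), HF-SC GFP (177 ± 28.3), b-KC Tom (116 ± 38.4), b-KC Co (88.4 ± 13.6), HF-SC Tom (61.7 ± 10.8) and HF-SC Co (8.69 ± 2.53). HF-SC GFP overlapped b-KC Tom, b-KC Tom overlapped b-KC Co, and b-KC Co overlapped HF-SC Tom. The ends of the order, b-KC GFP and HF-SC Co, stood clear of their neighbours. Ccl20 made up 96.4% to 99.2% of the summed FPKM of the 10 members in b-KC GFP and 97.2% to 98.3% in b-KC Co. Its share was 85.7% to 90.3% in HF-SC GFP and 48.7% to 61.0% in HF-SC Co. It was most uneven in Tom cells, at 39.98% to 81.1% in HF-SC Tom and 52.9% to 97.6% in b-KC Tom.

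**Figure D3:**
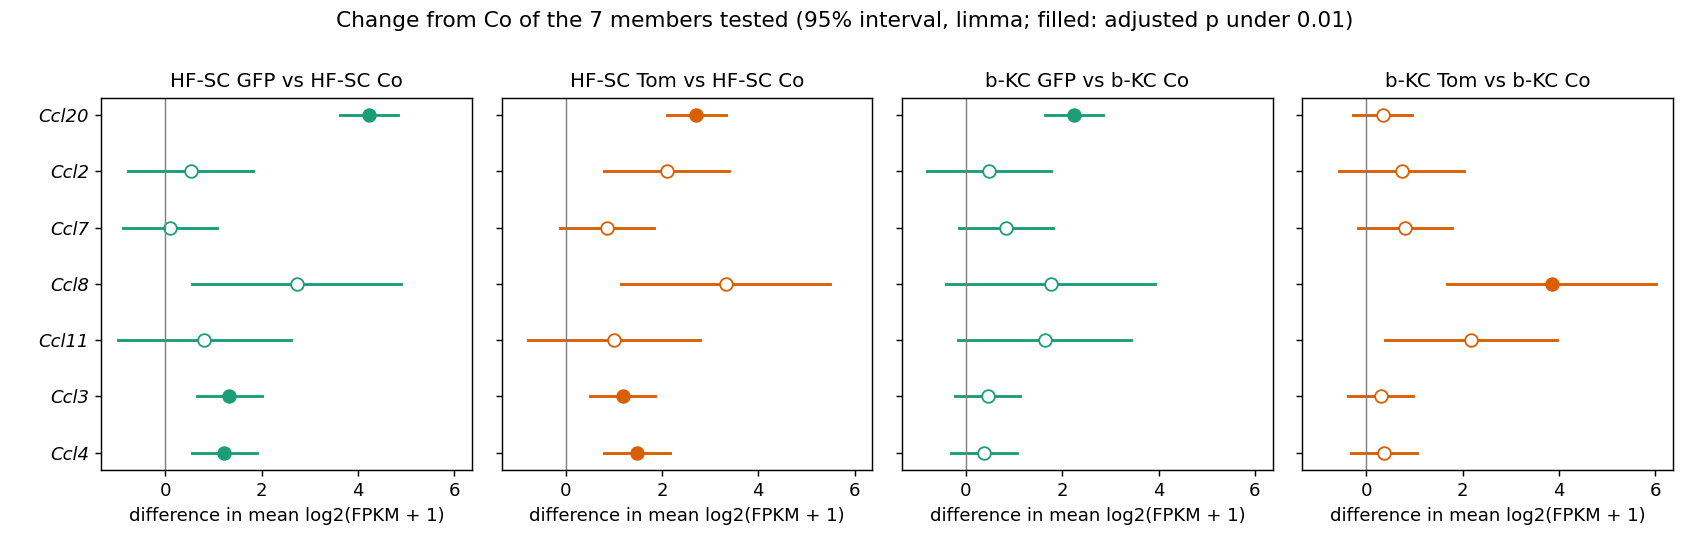
Difference from Co in mean log2(FPKM + 1), with 95% limma intervals, for the 7 members tested in each DKO* population, where filled points passed an adjusted p of 0.01. Ccl20 is filled in 3 panels, Ccl3 and Ccl4 in both HF-SC panels and Ccl8 in the b-KC Tom panel, and the intervals of Ccl8 and Ccl11 are the widest.

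Ccl2, the main monocyte attractant of the family, was present in every library. It stood at 2.54, 1.93 and 2.60 FPKM in HF-SC Co, at 4.22, 6.54 and 1.83 FPKM in HF-SC GFP, and at 21.9, 27.2 and 3.56 FPKM in HF-SC Tom. The Tom libraries of mice 814 and 815 were high and that of mouse 817 was only just above the Co range. The HF-SC Tom change from Co was 2.10 on the log2(FPKM + 1) scale (SE 0.61, limma adjusted p = 0.0112), short of the call. With the mouse as a random replicate block it was called (limma adjusted p = 0.00247), and without mouse 817 it was 2.93 (limma adjusted p = 4.25e-08). Without mouse 814 it was 1.76 (limma adjusted p = 0.0817) and without mouse 815 it was 1.61 (limma adjusted p = 0.0759). HF-SC GFP differed from Co by 0.53 (limma adjusted p = 0.522) with overlapping groups, and without mouse 817 by 0.91 (limma adjusted p = 0.00189). Endothelial markers moved with Ccl2 in the Tom cells, their sum being 1160, 1132 and 382 FPKM in HF-SC Tom 814, 815 and 817, and their part in the Ccl2 level was not tested.

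In b-KCs, Ccl2 stood at 1.28, 0.822 and 1.82 FPKM in Co, at 2.76, 3.40 and 0.934 FPKM in GFP, and at 4.57, 5.03 and 0.627 FPKM in Tom. Both DKO* populations overlapped Co, since mouse 817 lay within or below the Co range while the other mice lay above it. The changes from Co were 0.48 (limma adjusted p = 0.548) in GFP and 0.74 (limma adjusted p = 0.336) in Tom, and without mouse 817 they were 0.84 (limma adjusted p = 0.00271) and 1.35 (limma adjusted p = 8.11e-05). In HF-SCs the GFP level was below the Tom level in 3 of 3 mice, with Tom to GFP ratios of 5.19, 4.16 and 1.95, but the difference of -1.58 had a limma adjusted p of 0.143. Without mouse 817 it was -2.02 (limma adjusted p = 9.89e-06).

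Ccl7, a further Ccr2 ligand, was measured in all libraries as well. In HF-SC Co it was at 2.26, 2.34 and 4.16 FPKM and in b-KC Co at 0.108, 0.442 and 0.429 FPKM. The Co cell types did not overlap, as was so for 32.2% of all genes in that direction, and HF-SC Co was 1.54 higher on the log2(FPKM + 1) scale (SE 0.46, limma adjusted p = 0.0108), just outside the call. With the mouse as a block the same difference was called, at a limma adjusted p of 0.00117 as a random block and 9.07e-05 as a fixed block. It was also called without mouse 815 (limma adjusted p = 0.00983) or 817 (1.79e-05). Both are DKO* mice, in neither Co group, so leaving them out changes only the shared estimate of the spread. Without Co mouse 810, 825 or 828 the difference was not called. In HF-SC GFP it was at 3.08, 3.30 and 2.90 FPKM, inside the Co range and with a difference from Co of 0.09 (limma adjusted p = 0.889), and in HF-SC Tom at 6.58, 8.62 and 3.69 FPKM. HF-SC Tom differed from Co by 0.87 (limma adjusted p = 0.139), and without mouse 817 by 1.16 (limma adjusted p = 6.92e-04). In b-KC GFP it was at 1.71, 3.25 and 0.118 FPKM, and in b-KC Tom at 2.18, 2.60 and 0.0632 FPKM. The b-KC changes from Co, 0.83 in GFP (limma adjusted p = 0.158) and 0.81 in Tom (limma adjusted p = 0.162), were not called, mouse 817 lying at or below the low end of Co and the other mice well above it. Without mouse 817 both were 1.36 (limma adjusted p = 2.06e-04 and 2.09e-04), and the HF-SC difference of GFP from Tom, -0.77 over all mice (limma adjusted p = 0.386), was -1.03 (limma adjusted p = 0.00859). In HF-SCs Tom exceeded GFP in each mouse, by 2.13-, 2.61- and 1.27-fold in mice 814, 815 and 817. HF-SC GFP lay wholly below HF-SC Tom, as 10.2% of all genes did.

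Ccl8, the Ccr8 ligand, stood at 1.24, 0.838 and 0 FPKM in HF-SC Co, at 13.7, 9.96 and 6.50 FPKM in HF-SC GFP, and at 39.5, 23.4 and 3.19 FPKM in HF-SC Tom. The b-KC Co libraries had 0.0843, 0.0864 and 0.192 FPKM, those of b-KC GFP 4.35, 6.93 and 0.276 FPKM, and those of b-KC Tom 49.8, 38.8 and 1.09 FPKM. All 4 DKO* populations lay above their Co counterparts without overlap, as did 24.7% (GFP) and 24.4% (Tom) of all genes tested in HF-SCs and 28% (GFP) and 31.6% (Tom) in b-KCs. Since Ccl8 passed the filter through DKO* libraries, these values are a description. The call was made in b-KC Tom alone, where the change was 3.85 on the log2(FPKM + 1) scale (SE 1.02, limma adjusted p = 0.00644). The implied reads in b-KC Co were 1 to 2 a library, so that this size depends on the pseudocount. In b-KC Tom 814, 815 and 817 the endothelial sum was 5.10, 6.67 and 1.53 FPKM, against 1.05 to 2.22 FPKM in b-KC Co. The dendritic cell sum was 684, 1353 and 290 FPKM, against 6.15 to 11.9 FPKM. The fibroblast and T cell sums were instead highest in mouse 817, at 3.80 and 42.1 FPKM. The part of these cells in the Ccl8 level was not tested.

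For the other populations the Ccl8 changes were 2.73 in HF-SC GFP (limma adjusted p = 0.0451), 3.32 in HF-SC Tom (limma adjusted p = 0.0155) and 1.76 in b-KC GFP (limma adjusted p = 0.178). HF-SC Tom was called with the mouse as a random replicate block (limma adjusted p = 0.0056), and HF-SC GFP in a fit of only the groups compared (limma adjusted p = 8.66e-04), where b-KC Tom was not (limma adjusted p = 0.0223). The b-KC Tom call did not hold without any 1 of mice 810, 814, 815, 825 and 828, where the change was 3.02 to 3.90 with limma adjusted p-values of 0.0244 to 0.0629. Without mouse 817 all 4 changes were called, at 2.98 (GFP) and 4.29 (Tom) for HF-SCs and 2.54 (GFP) and 5.33 (Tom) for b-KCs, with limma adjusted p-values of 1.99e-08 to 1.57e-05. Tom exceeded GFP in b-KCs in 3 of 3 mice, by 11.4-, 5.59- and 3.94-fold in mice 814, 815 and 817. The difference of -2.09 had a limma adjusted p of 0.461, and without mouse 817 it was -2.79 (limma adjusted p = 2.08e-04). In HF-SCs Tom exceeded GFP in mice 814 and 815 and was below it in mouse 817.

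Ccl11, the eosinophil attractant eotaxin, was at 0.636, 1.098 and 0.115 FPKM in HF-SC Co and at 0, 0 and 0.0913 FPKM in b-KC Co. In HF-SC GFP it was at 4.09, 2.41 and 0.196 FPKM and in HF-SC Tom at 6.08, 3.40 and 0 FPKM, overlapping Co in both. In b-KC GFP it was at 3.44, 5.02 and 0.219 FPKM and in b-KC Tom at 9.41, 7.56 and 0.141 FPKM. The b-KC groups stood clear of Co, as 28% (GFP) and 31.6% (Tom) of all genes did, but the values of mouse 817 rested on 5 and 3 implied reads. No change was called, with values of 0.81 (limma adjusted p = 0.471) in HF-SC GFP, 1.01 (limma adjusted p = 0.351) in HF-SC Tom, 1.63 (limma adjusted p = 0.13) in b-KC GFP and 2.18 (limma adjusted p = 0.0448) in b-KC Tom. Without mouse 817 they were 1.41 (limma adjusted p = 6.19e-04), 1.84 (5.81e-05), 2.33 (1.04e-05) and 3.20 (5.80e-07), in the same order. Without any 1 of the other 5 mice they were 0.37 to 2.22, with limma adjusted p-values of 0.102 to 0.783.

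Mouse 817 was the lowest of the 3 DKO* mice in all 4 populations for each of these 4 genes, as it was for 11.6% of all genes tested. No member was lowest in that way in mouse 814 or 815, as 6.27% and 0.753% of all genes were. For Ccl20, mouse 817 was the lowest in both GFP populations and in neither Tom population. In fits without mouse 817, Ccl2, Ccl8 and Ccl11 were called higher than Co in all 4 DKO* populations, and Ccl7 in all but HF-SC GFP. In those fits 18.5% (GFP) and 23.9% (Tom) of all genes tested were called higher in HF-SCs, and 23.2% (GFP) and 21.6% (Tom) in b-KCs. Leaving out the lowest mouse raises the mean and narrows the spread by construction, so these calls only restate where mouse 817 lay. The differences of GFP from Tom given without mouse 817, and the Ccl2 interaction term without it, rest on the same omission. They too are a description. Leaving out any 1 of the other 5 mice gave no further call of these 4 genes against Co. Fibroblast markers were also low in mouse 817 in HF-SCs, where mice 814, 815 and 817 had sums over 6 genes of 68.6, 120 and 19.4 FPKM for GFP and 95.4, 115 and 13.9 FPKM for Tom. In b-KCs the order was different, the fibroblast sum of mouse 817 being the highest of the 3 mice at 5.85 FPKM in GFP and 3.80 FPKM in Tom. The endothelial sum was lowest in mouse 817 in all 4 populations, at 1.08 FPKM in HF-SC GFP, 382 FPKM in HF-SC Tom, 0.402 FPKM in b-KC GFP and 1.53 FPKM in b-KC Tom. In b-KCs that sum was at most 6.67 FPKM. Other sums were highest in mouse 817, the myeloid sum in HF-SC GFP (38.2 FPKM) and HF-SC Tom (26.5 FPKM). The T cell sum was highest in it in b-KC GFP (22.7 FPKM) and b-KC Tom (42.1 FPKM), but lowest in HF-SC Tom (3.11 FPKM). The part of these cells in the chemokine levels was not tested.

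**Figure D4:**
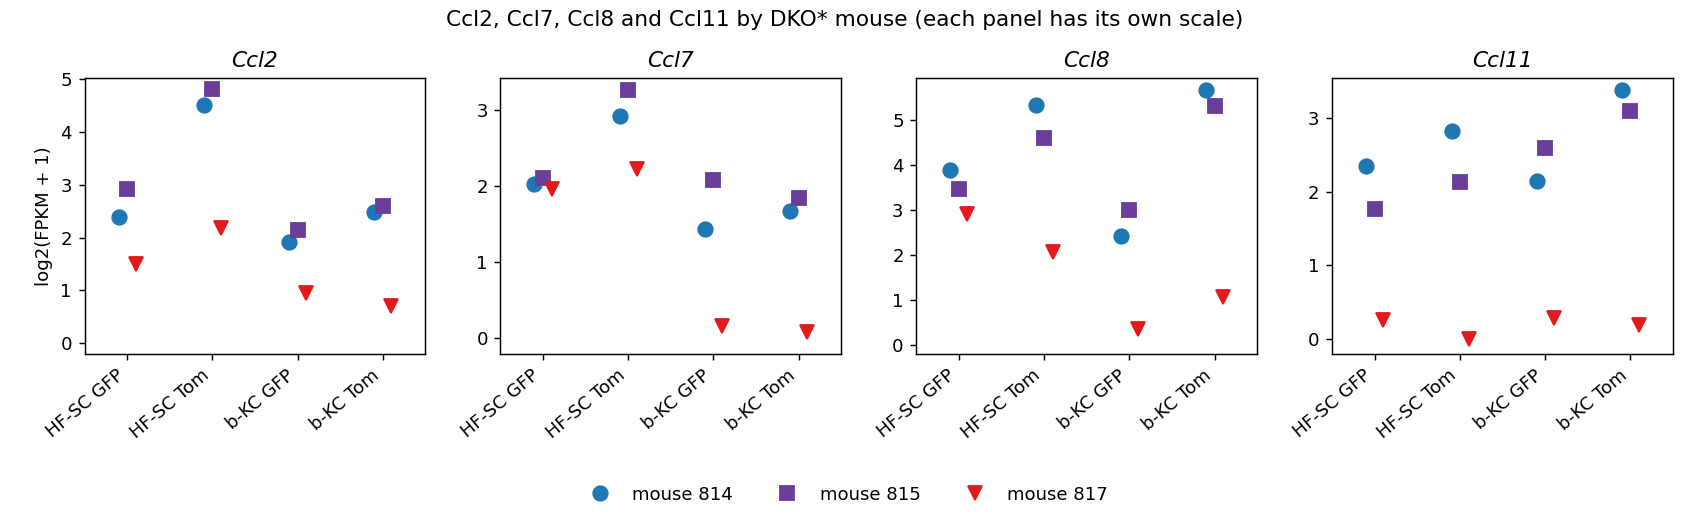
Log2(FPKM + 1) of Ccl2, Ccl7, Ccl8 and Ccl11 in the 4 DKO* populations, with a symbol for each of mice 814, 815 and 817. Mouse 817 is the lowest point in every column, by little for Ccl7 in HF-SC GFP (2.90 FPKM against 3.08 and 3.30 FPKM).

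Ccl3 and Ccl4, typical products of activated leukocytes, were close to or at 0 in Co. Ccl4 was listed at 0 in all 6 Co libraries, and Ccl3 in all but HF-SC Co 828, where it had 1 implied read. In HF-SC GFP, Ccl3 was at 3.18, 0.565 and 1.54 FPKM and Ccl4 at 3.46, 0.203 and 1.40 FPKM. In HF-SC Tom, Ccl3 was at 2.68, 1.01 and 0.687 FPKM and Ccl4 at 2.75, 1.67 and 1.18 FPKM. These are low levels, 10 to 56 implied reads a library for Ccl3 and 3 to 51 for Ccl4. In b-KCs they were lower still, at 0 to 0.832 FPKM for Ccl3 and 0.151 to 0.5004 FPKM for Ccl4 over the 6 DKO* libraries.

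On the log2(FPKM + 1) scale, where a change from 0 depends on the pseudocount, Ccl3 was 1.33 higher than Co in HF-SC GFP (SE 0.32, limma adjusted p = 0.00382) and 1.19 higher in HF-SC Tom (SE 0.32, limma adjusted p = 0.00683). Ccl4 was higher by 1.23 (SE 0.32, limma adjusted p = 0.00691) and 1.48 (SE 0.32, limma adjusted p = 0.00166). Both genes entered the test because DKO* libraries held them, so these calls are no independent evidence of a difference. The b-KC changes of 0.30 to 0.45 were not called (limma adjusted p = 0.266 to 0.465). The HF-SC GFP calls did not hold without mouse 810, 825 or 828 for Ccl3 (limma adjusted p = 0.0181 to 0.0187) and without any 1 mouse but 815 for Ccl4 (0.0143 to 0.0303), whose change was 0.77 without mouse 814. In HF-SC Tom the call was lost without mouse 810, 815, 825 or 828 for Ccl3 (0.0105 to 0.0291) and without 828 for Ccl4 (0.0101). Myeloid markers were higher in the same HF-SC libraries, as given above, and in the GFP fraction mice 814, 815 and 817 had sums of 11.5, 9.82 and 38.2 FPKM. That sum was highest in mouse 817, and Ccl3 and Ccl4 were highest in mouse 814. Its part in their levels was not tested.

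Ccl5, a product of T cells among others, was near the limit of detection. It had 0 to 7 implied reads a library, the most in HF-SC GFP 817 at 0.554 FPKM, and was listed at 0 in 5 of the 6 Co libraries. At this depth 3 reads correspond to 0.215 to 0.342 FPKM of Ccl5, and no difference was detectable.

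Of the Ccr4 ligands, which attract skin-homing T cells, Ccl17 was low but regular. It was listed at 0 in the 3 HF-SC Co libraries and stood at 0.697, 0.521 and 0.573 FPKM in HF-SC GFP and at 0.823, 1.18 and 1.13 FPKM in HF-SC Tom. The b-KC Co libraries had 0.168, 0 and 0.191 FPKM, those of b-KC GFP 0.590, 0.971 and 0.366 FPKM, and those of b-KC Tom 0.367, 0.493 and 0.393 FPKM. Each of the 4 DKO* populations lay wholly above Co, as 24.7% (GFP) and 24.4% (Tom) of all genes tested did in HF-SCs and 28% (GFP) and 31.6% (Tom) in b-KCs. HF-SC Tom lay above HF-SC GFP, as 10.2% of all genes tested did. Summed over 3 mice these values rest, for Co, GFP and Tom, on 0, 21 and 38 implied reads for HF-SCs and on 4, 20 and 13 for b-KCs. Ccl17 failed the filter, but in a fit of 19924 genes without it the changes were called in HF-SC GFP (0.67, limma adjusted p = 4.48e-04), HF-SC Tom (1.03, limma adjusted p = 1.06e-05) and b-KC GFP (0.54, limma adjusted p = 0.00289). In b-KC Tom that fit gave 0.34 with a limma adjusted p of 0.0298. Of the genes in that fit, 8.15% (GFP) and 11.6% (Tom) were called higher in HF-SCs, and 7.21% (GFP) and 9.12% (Tom) in b-KCs. The sum of 7 dendritic cell markers given above, 143 to 1353 FPKM in DKO* and 5.81 to 13.2 FPKM in Co, was higher in the same populations, and its part in the Ccl17 level was not tested. Unlike Ccl2 and Ccl8, Ccl17 was not lower in mouse 817 in HF-SCs, where its library was second of the 3 in both fractions. Ccl22, the other ligand of Ccr4, had 0 to 6 implied reads a library and at most 0.165 FPKM. It was listed at 0 in 5 of 6 Co libraries and in 2 of 12 DKO* libraries, both from mouse 817.

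Across the 18 libraries the members fell into patterns, given here as Pearson correlations of log2(FPKM + 1) without a test, because libraries share mice and groups. Ccl3 and Ccl4 were each other's nearest gene of all those tested (r = 0.95), and still tracked each other as deviations from group means (r = 0.90). Ccl8 and Ccl11 had an r of 0.89 and Ccl2 and Ccl7 of 0.84. Ccl20 had an r between -0.19 and 0.29 with the other 6 members tested. The nearest genes of Ccl2 were Gbp2 (r = 0.95), an interferon-inducible GTPase, and Ankrd33b (0.93). Those of Ccl7 were Gsdmd (0.94), the pore-forming gasdermin D, and Pdlim7 (0.90). Cd1d1, which presents lipid antigens, was near both Ccl8 (0.92) and Ccl11 (0.94), beside the chitinase-like gene Chil4 for Ccl8 (0.93) and the casein gene Csn1s1 for Ccl11 (0.95). Next to their partner, Ccl3 and Ccl4 were nearest to Ifitm1 (0.93 and 0.90), an interferon-induced membrane protein.

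The genes nearest to Ccl20 were Tnf (r = 0.97) and Deptor (r = 0.96), a regulator of mTOR. Tnf, the inflammatory cytokine that signals to NF-kB, was at 0.194 to 0.502 FPKM in HF-SC Co, 6.34 to 11.9 FPKM in HF-SC GFP and 4.21 to 5.29 FPKM in HF-SC Tom. In b-KCs it was at 3.34 to 4.04 FPKM in Co, 7.51 to 17.6 FPKM in GFP and 4.13 to 8.37 FPKM in Tom. Its mean was 10.3-fold higher in b-KC Co than in HF-SC Co, beside 10.2-fold for Ccl20. Within groups the deviations of Ccl20 and Tnf from their means had an r of 0.77 over 18 libraries.

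**Figure D5:**
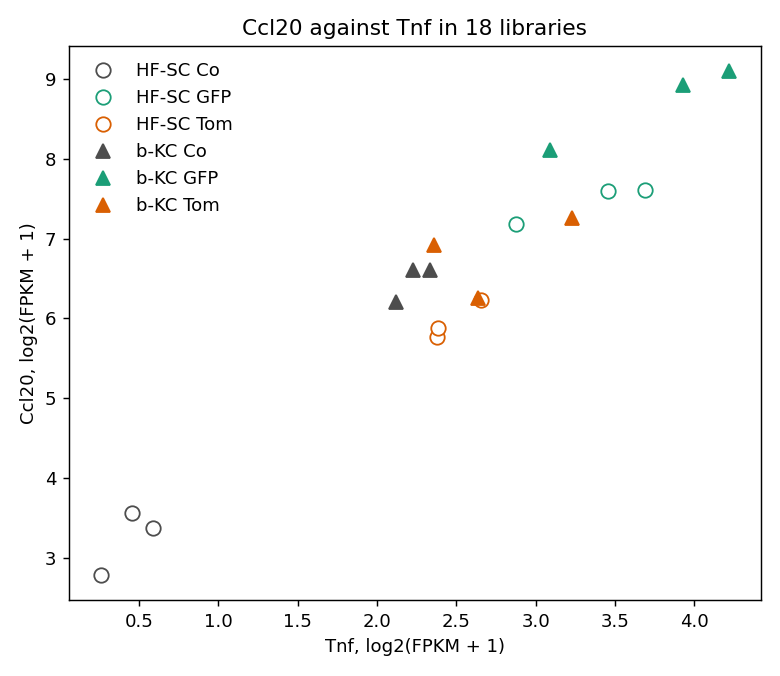
Ccl20 against Tnf, both as log2(FPKM + 1), for the 18 libraries, with open circles for HF-SCs and filled triangles for b-KCs coloured by population. The HF-SC Co libraries sit apart at the low end and the b-KC GFP libraries at the high end, so the correlation of 0.97 rests in part on differences between groups.

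Among 18 genes listed as inducers of chemokines or as their NF-kB feedback, 14 were tested. Of these, Il1b (at most 0.799 FPKM in Co) and Il17c (at most 0.198 FPKM) passed the filter through DKO* libraries, which favours higher values there. Their changes, and the counts and medians that include them, are given as a description. The shares of all genes called, for higher and lower, were 13% and 12.3% in HF-SC GFP, 15.7% and 13.9% in HF-SC Tom, 12.5% and 12% in b-KC GFP, and 15.4% and 15.3% in b-KC Tom, and the counts here and for the receptors stand beside these. In HF-SC GFP 9 were called higher than Co and 0 lower, with a median change of 1.46 over the 14 beside -0.05 over all genes. Tslp rose by 5.48, Il1a by 5.18, Tnf by 2.91 and Il1b by 2.65 on the log2(FPKM + 1) scale. In HF-SC Tom 9 were again higher and 0 lower (median 0.86 beside -0.04), with Tslp at 3.14, Il1b at 2.83, Tnf at 2.04 and Il1a at 1.95. In b-KC GFP 5 were higher and 2 lower (median 0.38 beside -0.03), led by Il1a (2.85), Tslp (2.51), Il17c (2.35) and Tnf (1.52). The 2 lower were Tnfaip3 (-0.78), an inhibitor of NF-kB signalling, and Nfkbiz (-0.66). In b-KC Tom, where Ccl20 was not called, 3 were higher and 3 lower (median 0.23 beside -0.02). There too Tnfaip3 (-1.40) and Nfkbiz (-0.96) fell, while Tslp (1.11) rose. In HF-SCs Tnfaip3 was instead called higher, by 1.63 in GFP and 1.74 in Tom. The 4 not tested were Il17a, Il17f, Il22 and Ifng, products of lymphocytes, named here after their values were seen.

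Ccr6, the receptor of Ccl20, was listed at 0 in 15 of 18 libraries and was at most 0.116 FPKM. Ccr2, the receptor of Ccl2 and Ccl7, was at most 0.0298 FPKM in HF-SC Co and reached 0.785 FPKM in HF-SC GFP 817. Ccr4, the receptor of Ccl17 and Ccl22, was at 10.3 to 11.1 FPKM in b-KC Co and at 0.647 to 1.19 FPKM in HF-SC Co, and it rose in HF-SC GFP (1.24, limma adjusted p = 1.90e-05) and HF-SC Tom (1.04, limma adjusted p = 7.69e-05). The sum of 7 T cell markers was 0.673 to 1.58 FPKM in HF-SC Co, 1.32 to 4.22 FPKM in HF-SC GFP and 3.11 to 4.75 FPKM in HF-SC Tom. In b-KCs it was 11.7 to 16.4 FPKM in Co, 9.58 to 22.7 FPKM in GFP and 8.91 to 42.1 FPKM in Tom. Its members differed, since in b-KC Co Cd3e was at most 0.210 FPKM and Cd3g was listed at 0 in all libraries. The part of T cells in the Ccr4 level was not tested. Of 14 receptors listed, 5 were tested, with 1 higher and 2 lower in HF-SC GFP, 2 higher and 1 lower in HF-SC Tom, 0 higher and 2 lower in b-KC GFP, and 0 higher and 3 lower in b-KC Tom.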

How the data were processed

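RNA-seq of 18 libraries was used, grouped by the sample labels. The authors aligned single-end, unstranded reads to NCBI37/mm9 with TopHat and Bowtie and deposited FPKM per gene. Per the labels, TopHat2 was 2.0.10, Bowtie 1.0.0 and Cufflinks 2.2.1, and a further genome build is listed without a role. Multiply mapped reads were allowed and strand was not kept, so paralogs and overlapping genes are uncertain. The authors' Cufflinks test needs reads and was not repeated.

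FPKM were taken as log2(FPKM + 1) after a filter of at least 1 FPKM in at least 3 libraries, and 12751 genes were fitted with limma 3.58.1 (R 4.3.3) over 6 groups. P-values were adjusted by Benjamini-Hochberg within each of 9 comparisons and called below 0.01. The step was tested on simulated data. Implied reads come from FPKM steps over 7744 genes with 1 transcript, 78.1% to 82.7% of whose low values came within 0.1 of a whole number of reads. They were obtained for 9 members, Ccl20 having no low values, and 3 reads were taken as the floor, for counting error only. Python 3.11.15, pandas 2.3.3, numpy 2.4.6 and matplotlib 3.10.9 were used.

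The numbers pair libraries of the same mouse. Deviations from group means correlated across genes with r = 0.59, 0.08 and 0.43 for HF-SC GFP and Tom of mice 814, 815 and 817, 0.24, 0.67 and 0.69 for b-KCs, and 0.32, 0.31 and 0.20 for the Co cell types of mice 810, 825 and 828. Alternatives were another pseudocount, filter, threshold, scaling, trend, set of groups, replicate block and each mouse left out. The members, gene lists and tests were chosen with earlier results of these data known. The named genes are the 10 members, Jun and Junb, up to 4 called genes of each list with the largest change, Ccr6 and Ccr2, and the 2 genes nearest each tested member. Some listed genes and 1 further promoter motif that was searched are not reported here. Gene positions are from GENCODE in NCBI37.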

Additional observations from a re-analysis of the deposited data

Results flagged for a closer look

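For Ccl20, the interaction term (the HF-SC change less the b-KC change) for the change from Co to GFP was 1.99 on the log2(FPKM + 1) scale, with a 95% interval of 1.13 to 2.84, HF-SCs changing by 4.22 and b-KCs by 2.24 from Co levels of 8.69 and 88.4 FPKM. It was not called without any 1 of mice 810, 814, 815, 825 and 828 (limma adjusted p = 0.0175 to 0.0281), nor with a minimum log2 change of 2. That for the change from Co to Tom was 2.38, with a 95% interval of 1.52 to 3.23, HF-SCs changing by 2.72 and b-KCs by 0.34. In both DKO* fractions the mean Ccl20 level nevertheless stayed higher in b-KCs, 2.45-fold in GFP and 1.87-fold in Tom, as against 10.2-fold in Co. The remaining 6 members tested had no interaction term past the threshold, and without mouse 817 the term of Ccl2 for Tom was past it. Groups of 3 mice are too small for a test of single outlying libraries.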

How the results depend on the processing

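Over all genes, the main counts of calls were 3236 (HF-SC GFP against Co), 3774 (HF-SC Tom against Co), 3126 (b-KC GFP against Co), 3922 (b-KC Tom against Co), 636 (HF-SC GFP against Tom), 62 (b-KC GFP against Tom), 4845 (HF-SC Co against b-KC Co), 664 (interaction for GFP) and 1026 (interaction for Tom). A threshold of 0.05 gave 4909, 5301, 1100, 218, 1597 and 2019 in HF-SC GFP, b-KC GFP, HF-SC GFP against Tom, b-KC GFP against Tom and the interactions. A minimum log2 change of 2 gave, in the order above, 391, 521, 239, 351, 252, 11, 720, 110 and 252. A pseudocount of 0.1 gave 107 in b-KC GFP against Tom. Only the groups compared gave 1915 in HF-SC Tom against Co, 83 in HF-SC GFP against Tom and 0 in b-KC GFP against Tom, where limma gave 1436 genes at an unadjusted p below 0.05. The mouse as a random replicate block gave 987, 230, 1382 and 1704 in the GFP against Tom comparisons and the interactions, and as a fixed block 196 and 9 in the former. It changed no call of a member beyond those given for Ccl2, Ccl7, Ccl8 and Ccl20, except that Ccl2 was called higher in HF-SC Co than in b-KC Co with the fixed block.

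With each mouse left out in turn the counts ranged from 1664 to 4740, 2232 to 5816, 862 to 5790, 1825 to 5541, 250 to 1707, 0 to 396, 3081 to 6634, 95 to 1980 and 251 to 2007 in the first order, lowest without mouse 815 (825 for Co against Co) and highest without mouse 817. The 0 in b-KC GFP against Tom came without 814 or without 815, where 1133 and 837 genes had an unadjusted limma p below 0.05. Of the 38 member results, 38 kept their side of the threshold with a pseudocount of 0.1 and without the trend, 37 at an equal upper quartile, and 19 without mouse 817, where 18 became significant and 1 was lost. Among these 38 results the direction changed in 1, Ccl7 in HF-SC GFP against Co, which went from 0.094 to between -0.023 (without mouse 810) and 0.31 (without mouse 828), below 0 also without mouse 825, and was called in none of these fits. With no filter, Ccl3 in HF-SC Tom, Ccl4 in HF-SC GFP and Ccl8 in b-KC Tom were not called, and with only the groups compared 6 calls were lost, among them both Ccl20 differences of GFP from Tom (limma adjusted p = 0.0141 in HF-SCs and 0.131 in b-KCs), while 2 were gained, Ccl8 in HF-SC GFP (limma adjusted p = 8.66e-04) and Ccl7 in HF-SC Co against b-KC Co (limma adjusted p = 2.82e-04). The cause of these shifts was not tested. The depth limits Ccl5, Ccl17 and Ccl22, where 3 reads equal 0.063 to 0.353 FPKM.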

Other observations

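Ccl27a, a CC chemokine that basal keratinocytes make at rest and that attracts Ccr10-bearing T cells, stood at 139, 148 and 205 FPKM in HF-SC Co and at 49.0, 40.7 and 24.1 FPKM in HF-SC GFP. It fell by 2.12 in HF-SC GFP (limma adjusted p = 2.03e-04), by 2.07 in HF-SC Tom (limma adjusted p = 1.96e-04) and by 2.31 in b-KC Tom (limma adjusted p = 9.59e-05) on the log2(FPKM + 1) scale. In b-KC GFP the difference from Co was -1.18 (limma adjusted p = 0.0136), which was not called. Ccl6 was higher in HF-SC GFP by 1.84 and in HF-SC Tom by 1.998, from 0.170 to 0.335 FPKM in HF-SC Co. It was at most 0.810 FPKM in b-KC Co, and so passed the filter through DKO* libraries, which favours higher values there. The changes of Ccl6 are therefore a description, and from such low levels their size depends on the pseudocount. In b-KCs Ccl6 was not called, at 0.56 in GFP and -0.0083 in Tom. The sum of 9 leukocyte and myeloid markers was higher in the same HF-SC libraries, at 9.82 to 38.2 FPKM in GFP and 13.6 to 26.5 FPKM in Tom against 4.90 to 7.28 FPKM in Co, and its part in the Ccl6 level was not tested. Of the 11 other CC chemokines listed, 3 were tested.

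Among receptors that take up chemokines without signalling to migration, Ackr4 fell in all 4 DKO* populations, by 2.81, 2.83, 2.93 and 3.38. It stood at 75.6, 143 and 153 FPKM in HF-SC Co and at 8.56, 18.5 and 25.1 FPKM in HF-SC GFP. Ackr1, a gene of venular endothelium, moved in opposite directions in the HF-SC fractions, from 27.4, 22.5 and 15.2 FPKM in Co to 3.71, 5.44 and 0.145 FPKM in GFP and to 480, 421 and 138 FPKM in Tom. Endothelial markers moved with it, and their part was not tested.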
